A study of Mus musculus with 6 samples.

Results

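The adhesion receptors of platelets and of megakaryocytes, the marrow cells that shed platelets, were followed in the RNA of mouse articular cartilage at 2 ages. The genes described are Gp1ba, Gp1bb, Gp9 and Gp5, which encode the subunits of the GPIb-IX-V complex, Vwf, which encodes its ligand von Willebrand factor, Itga2b, which encodes the alpha chain of the fibrinogen receptor, Gp6, which encodes the collagen receptor, and Clec1b and Treml1, which encode the receptors CLEC-2 and TLT-1. They were taken from the gene table by symbol and make up 9 of its 33971 genes. Polyadenylated RNA of wild-type cartilage was sequenced in 3 libraries from mice aged 2 months, called young here, and in 3 libraries from mice aged 18 months, called aged. No treatment is named for either age, and the labels do not say whether a library came from 1 animal or from several, so p-values measure the spread between these libraries. The authors' methods describe the mice as male.

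A platelet slows down on an injured vessel when GPIb-IX-V catches von Willebrand factor that is bound to exposed collagen. GPVI then binds the collagen itself, CLEC-2 binds podoplanin, and both signal inside the cell until the integrin of Itga2b and Itgb3 switches to a form that holds fibrinogen. Megakaryocytes make the mRNAs of these receptors, and endothelial cells also make von Willebrand factor. Articular cartilage is known as a tissue without blood vessels or marrow, with chondrocytes as its resident cells.

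The libraries held 48171507 to 59085179 counts, and 3 counts, taken as the limit of detection, stood for 0.0508 to 0.0623 CPM, the usual scaling of counts to a common library total. Several features of the libraries moved with age. All 16 chondrocyte markers examined were called lower at 18 months by the edgeR test described below, beside 21.3% of all genes tested. DESeq2 and limma each called 15 of them, and edgeR called 15 or 16 with 1 library left out. Their summed level was 45252 to 70381 CPM in the young libraries and 701 to 1751 CPM in the aged ones. Xist, an RNA made in female cells, had 88239 to 102417 counts in the young libraries and 11 to 30 in the aged ones, although the methods describe male mice. Age and the sex pattern of the libraries cannot be told apart. Within an age, 2-month replicate 2 stood apart in transcripts of blood and marrow cells. The summed level of 11 erythroid markers was 6636 CPM in it and 247 and 698 CPM in the other young libraries, and that of 14 neutrophil markers was 5654 CPM against 17.4 and 268 CPM. The aged libraries had 27135 to 35884 CPM of the erythroid markers and 43276 to 46394 CPM of the neutrophil markers. Blood and marrow transcripts were not the only ones in which 2-month replicate 2 stood apart. Col1a1, a fibrillar collagen, had 545386 counts in it and 10559 and 22118 in the other young libraries. The aged libraries had 115288 to 125783 counts of Col1a1.

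The promoters of 3 of the genes are shown here because GATA and ETS factors are known to drive megakaryocyte genes, and because the products of Gp1ba, Gp5 and Gp9 sit in the same receptor complex. Each sequence is from RefSeq on GRCm38.p6 and holds 130 bases that end at the base before the start that RefSeq annotates, which for Gp5 and Gp9 lies 2 bases upstream of the start in the gene table. Capitals mark GATA motifs (the letters AGATAA and AGATAG, and the same letters with another first base, TGATAA as well as TGATAG) and ETS motifs (either AGGAAG or else the letters CGGAAG), searched on both strands, so that a motif of the other strand appears as its reverse complement. No marked motif overlaps another.
Gp1ba, chr11:70638992-70639121, plus strand: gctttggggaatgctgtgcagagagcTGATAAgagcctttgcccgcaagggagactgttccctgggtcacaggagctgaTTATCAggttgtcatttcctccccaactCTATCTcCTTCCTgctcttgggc
Gp5, chr16:30310782-30310911, minus strand: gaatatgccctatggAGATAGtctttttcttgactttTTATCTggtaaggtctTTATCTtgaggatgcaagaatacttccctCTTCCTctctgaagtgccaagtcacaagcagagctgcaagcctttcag
Gp9, chr6:87777940-87778069, plus strand: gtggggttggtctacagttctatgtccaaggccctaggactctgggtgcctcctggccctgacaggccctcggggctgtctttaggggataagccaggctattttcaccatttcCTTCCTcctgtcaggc
Gp1ba and Gp5 each held 3 GATA motifs and 1 ETS motif in these stretches, and Gp9 held 1 ETS motif. Over the 250 bases before the start, 8 of the 9 genes could be searched, all but Vwf. A GATA motif was found in 5 of the 8, beside 26.5% of the 32851 promoters in the table, and an ETS motif in 5 of the 8, beside 39.2%. Both motifs were found in Gp1ba, Gp1bb and Gp5, 3 of the 8, beside 9.21% of all promoters. These are matches of letters in a window, and no binding was measured.

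All 9 genes were higher in aged cartilage, by between 18.6-fold for Vwf and 84.7-fold for Treml1. Counts were tested with edgeR's quasi-likelihood test, and a gene was called when its p-value after Benjamini-Hochberg adjustment over the 20397 genes tested was below 0.05 and its log2 fold change, aged against young, was above 1 or below -1. By this rule 9 of 9 were called higher, beside 14.9% of all genes tested, and 0 were called lower, beside 21.3%. None was lower at an unadjusted p below 0.05, and DESeq2 and limma also called 9 higher and 0 lower. Their median log2 fold change was 5.78, beside -0.02 over all genes tested. By adjusted p alone 9 were higher, beside 23.4% of all genes tested, and 0 lower, beside 27.9%. Every aged library lay above every young library for 9 of 9, as it did for 35.6% of all genes tested, and below for 0 of 9, as for 32.9%. In RNA from whole tissue, more cells of a type and more RNA per cell cannot be told apart. With 1 library left out, 5 to 9 of the 9 were called, with 5 when 18-month replicate 1, 2 or 3 was left out and 9 when 2-month replicate 2 was, where the median was 9.09.

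**Figure D1:**
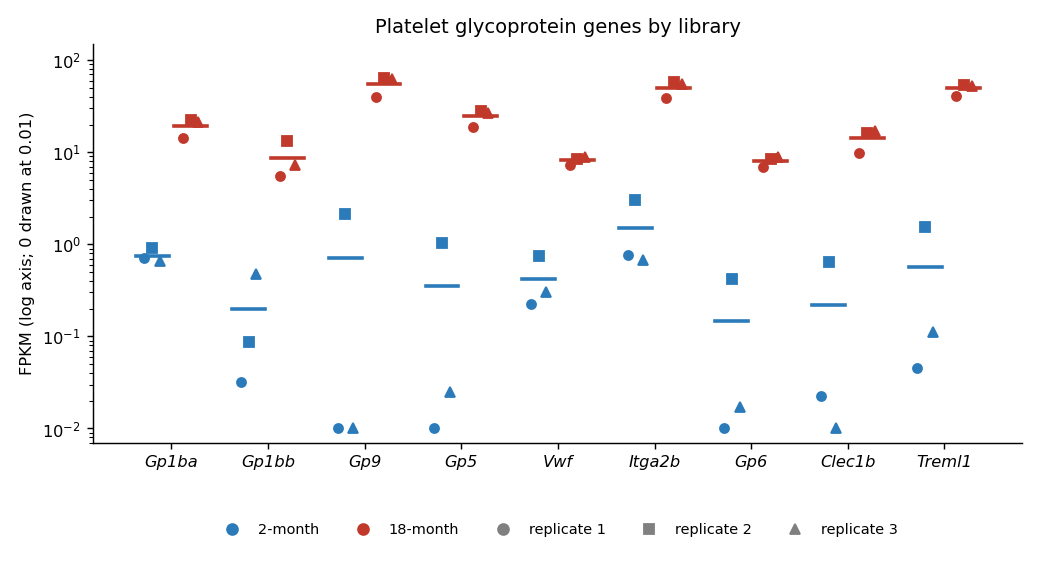
Level of each gene in each library in FPKM, which scales fragments by transcript length and library size, on a log axis, with genes ordered by role, colours for age, marker shapes for the replicate and short lines at the mean of each age; a value of 0 is drawn at 0.01. For all 9 genes the 3 aged libraries lie above the 3 young ones, and 2-month replicate 2 is the highest young library for every gene but Gp1bb.

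Gp1ba encodes GPIb alpha, the chain that binds von Willebrand factor, and lies on chromosome 11 at 70639122 to 70642036 (GRCm38, plus strand). It had 106, 145 and 101 counts in young replicates 1 to 3 and 2614, 3825 and 3698 counts in aged replicates 1 to 3. Its mean FPKM was 0.754 ± 0.131 in young and 19.3 ± 4.39 in aged cartilage (SD, n = 3 each). Among the 9 genes it varied least between young libraries relative to its mean. The log2 fold change was 4.60 (SE 0.25, adjusted p = 0.00071 by edgeR with Benjamini-Hochberg adjustment).

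Gp9 encodes GPIX, which is needed to bring GPIb to the cell surface, and lies on chromosome 6 at 87778072 to 87779768 (plus strand). It had 0, 110 and 0 counts in the young libraries and 2359, 3536 and 3522 in the aged ones. A single young library thus carried all of its young counts, and the ages did not overlap. In FPKM its mean was 0.709 ± 1.23 in young and 55.5 ± 13.5 in aged cartilage (SD, n = 3 each). The log2 fold change was 6.28 (SE 1.83, adjusted p = 0.033 by edgeR with Benjamini-Hochberg adjustment). Against the young libraries at 0, each set to 3 counts, the aged level was at least 897-fold higher. Gm43904, a non-coding RNA gene on the same strand just upstream, which was picked after its values were seen, had 0, 25 and 0 counts in young and 97, 150 and 159 in aged libraries, and it did not pass the test (edgeR, Benjamini-Hochberg adjusted p = 0.075).

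Gp5 encodes GPV, the subunit that thrombin cleaves, and lies on chromosome 16 at 30307685 to 30310779 (minus strand). It had 0, 134 and 4 counts in the young libraries and 2806, 3915 and 3765 in the aged ones. As for Gp9, nearly all young counts were in replicate 2. Its mean FPKM rose from 0.354 ± 0.591 to 24.7 ± 5.02 (SD, n = 3 each), with a log2 fold change of 6.10 (SE 1.67, adjusted p = 0.027 by edgeR with Benjamini-Hochberg adjustment).

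Gp1bb encodes GPIb beta, which is joined to GPIb alpha by disulfide bonds, and lies on chromosome 16 at 18620317 to 18622403 (minus strand). It had 4, 12 and 56 counts in the young libraries and 774, 1727 and 967 in the aged ones. Here replicate 3 was the highest young library, unlike the other 8 genes. In FPKM it had a mean of 0.198 ± 0.242 in young cartilage (SD, n = 3), and 5.51, 13.1 and 7.26 in the aged libraries with a mean of 8.64. Its log2 fold change was 5.31 (SE 1.06, adjusted p = 0.0092 by edgeR with Benjamini-Hochberg adjustment).

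The position of Gp1bb limits what its counts say. In GENCODE M21, 1902 of its 2087 exonic bases (91.1%) are also exonic in Septin5, the septin gene just upstream, and 867 (41.5%) in Gm49601, both on the same strand, so that strand-specific reads do not separate them. Septin5 had 2578, 4445 and 3500 counts in young and 7246, 5284 and 6450 in aged libraries, and Gm49601 had 777, 769 and 993 in young and 883, 677 and 702 in aged ones. Gp1bb held 0.119% to 1.23% of the sum of the 3 genes in young libraries and 8.69% to 22.5% in aged ones. With the 3 genes counted as 1, the log2 fold change was 0.65 and fell short of the fold limit (edgeR, Benjamini-Hochberg adjusted p = 0.012, against a range of 1.0e-06 to 0.033 over the alternatives for Gp1bb), which left 8 of 9 genes called. The value of Gp1bb is uncertain for this reason. Clec1b shares 184 of its 5103 exonic bases (3.61%) with Clec9a on the same strand, and summing these 2 genes gave a log2 fold change of 5.57 in place of 6.02 and kept the call.

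**Figure D2:**
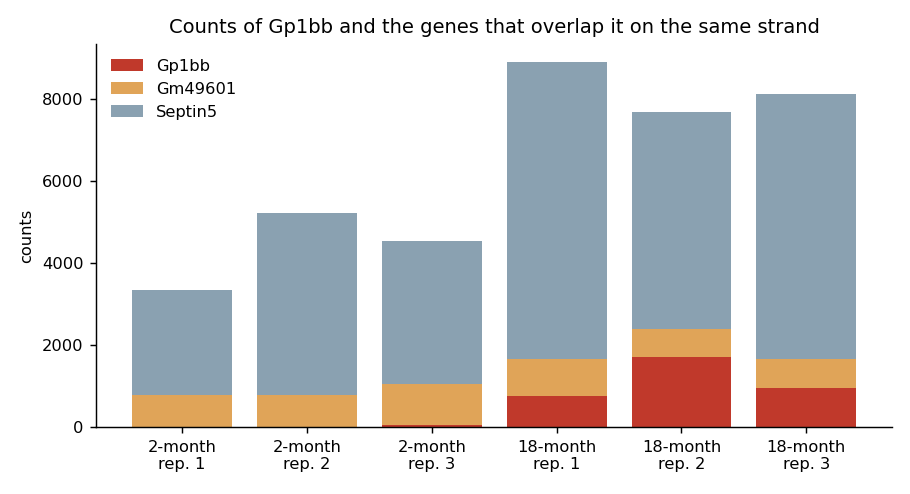
Stacked bars of the counts of Gp1bb, Gm49601 and Septin5 in each of the 6 libraries, on a linear axis from 0. The sum is 3359 to 5226 counts in young libraries and 7688 to 8903 in aged ones, and Gp1bb is the part of it that is nearly absent from the young bars.

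Vwf, the ligand of GPIb, lies on chromosome 6 at 125546774 to 125686679 (plus strand). It had 202, 700 and 281 counts in the young libraries and 7941, 8510 and 9126 in the aged ones. It was the member with the smallest fold and was detected in every young library. Its mean FPKM was 0.425 ± 0.278 in young and 8.23 ± 0.796 in aged cartilage (SD, n = 3 each), and its log2 fold change was 4.22 (SE 0.46, adjusted p = 0.0018 by edgeR with Benjamini-Hochberg adjustment). Of 11 endothelial marker genes, 1 was called higher (Stab2, log2 fold change 2.23) and 1 lower (Erg, -1.18), with a median of 0.65. The shares over all genes tested were 14.9% and 21.3%. Without 2-month replicate 2, edgeR called 9 of the 11 higher and 1 lower, and Erg lost its call without 2-month replicate 3 or 18-month replicate 2 or 3. The summed level of the 11 genes was 130, 453 and 172 CPM in young replicates 1 to 3 and 318 to 350 CPM in aged libraries. The ages thus overlapped only through 2-month replicate 2. Erg alone made up 109, 61.9 and 111 CPM of the young sums.

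Itga2b, the integrin chain that marks the megakaryocyte lineage, lies on chromosome 11 at 102453297 to 102470122 (minus strand). It had 232, 981 and 212 counts in young libraries and 14364, 19674 and 19013 in aged ones, with the highest young library far below the lowest aged one. Its mean FPKM was 1.50 ± 1.35 in young and 50.4 ± 9.82 in aged cartilage (SD, n = 3 each), and its log2 fold change was 5.03 (SE 0.69, adjusted p = 0.0030 by edgeR with Benjamini-Hochberg adjustment). Its partner chain Itgb3, which osteoclasts and other cells also make with another alpha chain, had 1598, 10588 and 1725 counts in young and 25017, 30051 and 30216 in aged libraries. Itgb3 rose as well, with a log2 fold change of 2.44 (SE 0.76, adjusted p = 0.040 by edgeR with Benjamini-Hochberg adjustment), and the difference between the 2 chains was not tested. The call of Itgb3 was lost without the filter on low counts and with any library but 2-month replicate 2 left out, with adjusted p of edgeR with Benjamini-Hochberg adjustment up to 0.099.

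Gp6, the collagen receptor GPVI, lies on chromosome 7 at 4363965 to 4397744 (minus strand) and had 0, 146 and 6 counts in young and 2765, 3122 and 3377 in aged libraries. The mean FPKM was 0.146 ± 0.239 in young and 8.12 ± 1.04 in aged cartilage (SD, n = 3 each), and its log2 fold change was 5.78 (SE 1.63, adjusted p = 0.029 by edgeR with Benjamini-Hochberg adjustment). GPVI signals through the Fc receptor gamma chain of Fcer1g, which many leukocytes also make. Fcer1g had 62, 1707 and 176 counts in young and 11524, 10385 and 10156 in aged libraries, with a log2 fold change of 3.88 (SE 1.20, adjusted p = 0.039 by edgeR with Benjamini-Hochberg adjustment). That call was lost without the filter, without 2-month replicate 3 and without any 1 of the aged libraries, with adjusted p up to 0.10.

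Clec1b, which encodes the podoplanin receptor CLEC-2, lies on chromosome 6 at 129397297 to 129409335 (plus strand) and had 7, 192 and 0 counts in young and 3404, 5235 and 5560 in aged libraries. Its mean FPKM was 0.221 ± 0.363 in young and 14.4 ± 3.94 in aged cartilage (SD, n = 3 each), and its log2 fold change was 6.02 (SE 1.72, adjusted p = 0.031 by edgeR with Benjamini-Hochberg adjustment). Its ligand showed no called difference. Pdpn, which encodes podoplanin, had 40, 216 and 102 counts in young and 144, 90 and 111 in aged libraries, and its log2 fold change of -0.28 (SE 0.57) did not pass the test (edgeR, Benjamini-Hochberg adjusted p = 0.70). Its sign changed with the processing, and the ages overlapped.

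Treml1, which encodes the alpha granule receptor TLT-1 that reaches the surface of activated platelets, lies on chromosome 17 at 48359916 to 48367176 (plus strand). It had 4, 128 and 9 counts in young and 3889, 4744 and 4728 in aged libraries. Mean levels in FPKM were 0.568 ± 0.847 in young and 49.3 ± 7.00 in aged cartilage (SD, n = 3 each). The log2 fold change of 6.40 was the highest of the 9 in this fit (SE 1.31, adjusted p = 0.010 by edgeR with Benjamini-Hochberg adjustment), although its standard error covers the values of Gp9, Gp5, Clec1b, Gp6 and Gp1bb.

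The calls differed in how they held when the processing or the libraries were changed. Itga2b, Gp1ba, Vwf and Treml1 were called under each of the 17 alternatives tried, Gp1bb under 16, and Gp5, Gp6, Gp9 and Clec1b under 13. Leaving out 18-month replicate 1, 2 or 3 left 5 of 9 called in each case, without Gp5, Gp6, Gp9 and Clec1b. Leaving out 2-month replicate 3 left 6, without Gp5, Gp6 and Gp9, and leaving out 2-month replicate 1 left 8, without Clec1b. The adjusted p of edgeR with Benjamini-Hochberg adjustment reached 0.087 for Gp9 in these fits, and no fold change turned its direction.

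**Figure D3:**
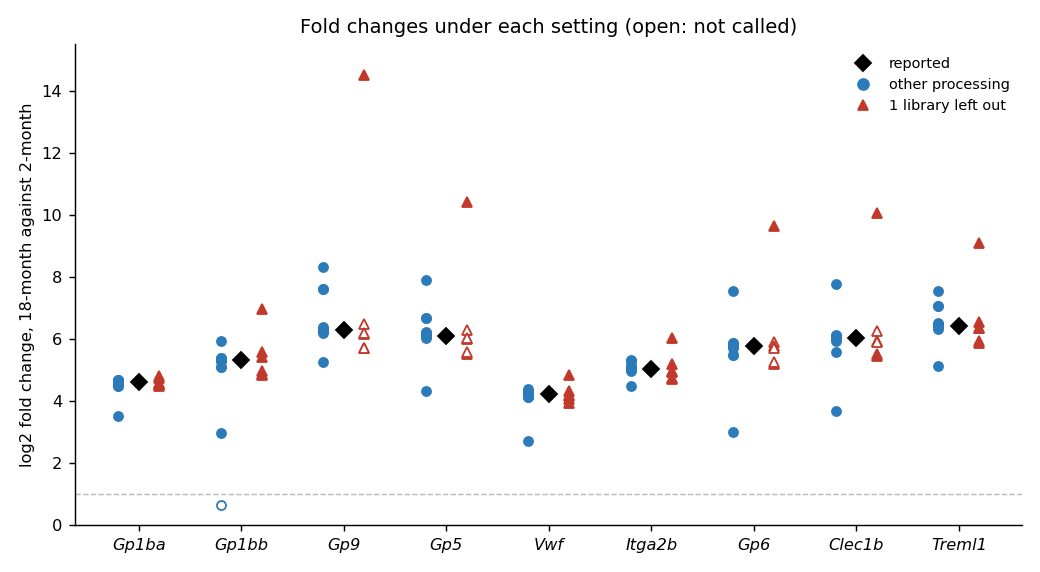
Log2 fold change of each gene, aged against young, as reported (black diamonds), under other processing (blue circles) and with 1 library left out (red triangles), with open symbols where the gene was not called and a dashed line at the fold limit of 1. All points lie above 0, the open ones are in Gp5, Gp6, Gp9 and Clec1b plus 1 in Gp1bb, and the fit without 2-month replicate 2 gives 14.5 for Gp9, a value set against 0 counts that depends on the prior count of the fit.

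Compared per transcript length, 3 of the genes stood above the rest in aged cartilage. Gp9, Itga2b and Treml1 had mean FPKM values of 55.5, 50.4 and 49.3, and Gp5, Gp1ba, Clec1b, Gp1bb, Vwf and Gp6 followed with 24.7, 19.3, 14.4, 8.64, 8.23 and 8.12. Treml1 and Gp5 were the only neighbours in this order whose ranges over the 3 aged libraries did not overlap. Gp5 was nonetheless above Gp1ba, and Gp1ba above Clec1b, in 3 of 3 aged libraries. The last positions, Gp1bb, Vwf and Gp6, did not differ beyond their spread.

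Within the aged libraries several pairs kept nearly one ratio of FPKM. The log2 ratio of Gp9 to Gp1ba was 1.52 ± 0.04, and that of Gp5 to Gp1ba was 0.36 ± 0.04 (SD, n = 3 each). Relative to Itga2b, the log2 ratio was -1.03 ± 0.01 for Gp5, -1.39 ± 0.06 for Gp1ba, 0.13 ± 0.09 for Gp9 and -0.02 ± 0.09 for Treml1. The spread was wider for Gp6 at -2.62 ± 0.14, Clec1b at -1.82 ± 0.15 and Vwf at -2.60 ± 0.18. Gp1bb varied most, with log2 ratios to Gp1ba of -1.38, -0.77 and -1.56 in aged replicates 1 to 3 (mean -1.23 ± 0.41). In 2-month replicate 2 the log2 ratio was 1.23 for Gp9 to Gp1ba, 0.20 for Gp5 to Gp1ba and -3.39 for Gp1bb to Gp1ba. Relative to Itga2b it was -1.56 for Gp5, -0.52 for Gp9 and -0.98 for Treml1 in that library. All of these ratios lay below their range in the aged libraries, as did those of Gp1ba, Gp6 and Clec1b to Itga2b. The ratio of Vwf to Itga2b went the other way, with -2.04 in 2-month replicate 2 and -2.77 to -2.41 in the aged libraries. In 2-month replicate 3 that of Gp5 to Gp1ba was -4.70, from 4 counts of Gp5.

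The level also varied among the aged libraries. In CPM, 18-month replicate 1 had 0.539 (Gp1bb) to 0.845 (Vwf) times the mean of replicates 2 and 3, and was below both for 9 of 9 genes. For the sum of the 9 genes this ratio was 0.711. It was 0.757 for the erythroid markers, 0.916 for the endothelial, 0.937 for the neutrophil and 0.982 for the macrophage markers, and 2.47 for the chondrocyte markers. Whether the makeup of that library had a part in its lower glycoprotein values was not tested.

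The young libraries carried the 9 genes at a small share of the aged level. Summed, they reached 1.30%, 5.60% and 1.58% of the aged mean CPM in replicates 1, 2 and 3. The share in 2-month replicate 2 ranged from 1.13% for Gp1bb to 8.98% for Vwf, with a median of 4.42%. Gp1ba was the most even, at 3.66%, 4.68% and 3.50%, while Gp5, Gp6, Gp9, Treml1 and Clec1b were at or below 0.237% in replicates 1 and 3.

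Markers of other cells took different shares in these libraries. In 2-month replicate 2 the summed level was 20.1% of the aged mean for erythroid, 12.5% for neutrophil, 7.51% for mast cell and basophil, 48.0% for macrophage and 134.2% for endothelial markers, and 9 of the 11 endothelial genes were above their aged mean. The sum of the 9 glycoprotein genes, at 5.60%, had a lower share than the sum of each of these lists in that library. In replicate 1 the shares were 0.751% for erythroid, 0.0385% for neutrophil, 1.46% for macrophage and 38.4% for endothelial markers. Erg alone held 109 of the 130 CPM of that endothelial sum. The median share of the 11 endothelial genes in replicate 1 was 6.87%.

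**Figure D4:**
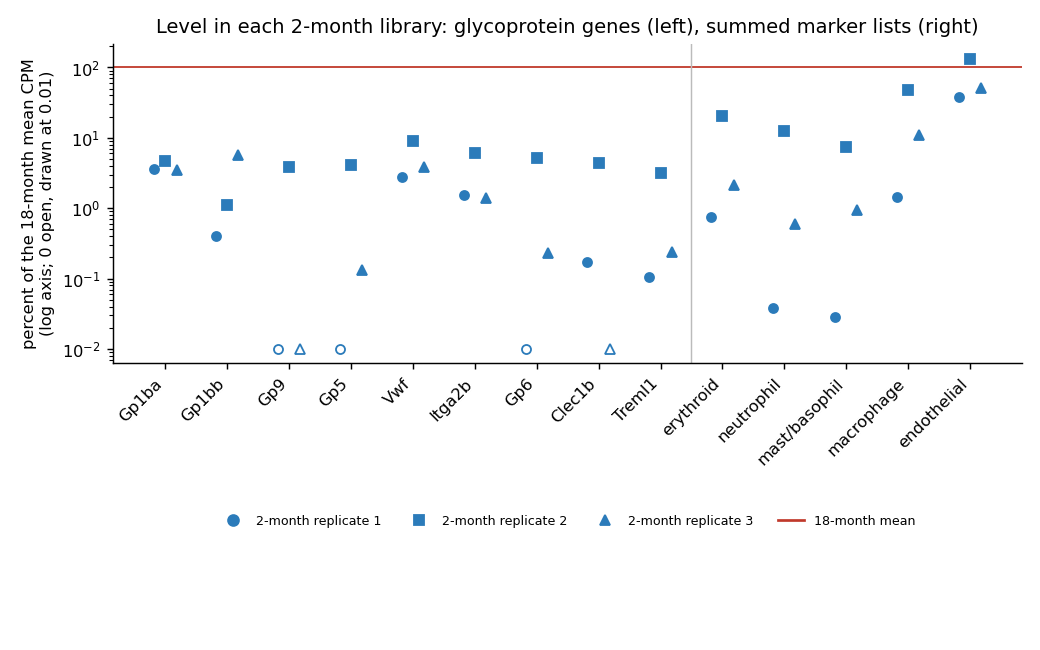
Level in each young library as a percentage of the aged mean in CPM, on a log axis, for the 9 genes at left and for the summed marker lists at right, with marker shapes for the replicate, a line at the aged mean of 100% and values of 0 drawn open at 0.01. In replicate 2 the 9 genes lie between 1.13% and 8.98%, and the summed lists for blood, marrow and vessel cells lie between 7.51% and 134.2%.

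The erythroid, neutrophil and macrophage lists, and the joint list of mast cells and basophils, had higher sums in every aged than in every young library. The endothelial sums overlapped. Within the joint list, Mcpt4 and Tpsb2 did not pass the filter on low counts, and Cma1 was not called, with a log2 fold change of 0.23. Of its 5 tested genes, 4 were higher in every aged than in every young library. All 11 erythroid genes measured, 13 of 14 neutrophil genes and 8 of 8 macrophage genes were higher in every aged than in every young library. This held for 35.6% of all genes tested. edgeR called 3 of the 11 erythroid, 0 of the 14 neutrophil, 3 of the 8 macrophage and 1 of 5 mast cell and basophil genes higher, beside 14.9% of all genes tested. The medians of their log2 fold changes were 3.77, 5.00, 3.20 and 4.86. Of the neutrophil genes 2 had an unadjusted p below 0.05 in edgeR, and DESeq2 called 10 and limma 13. Without 2-month replicate 2, edgeR called 11 erythroid, 13 neutrophil, 8 macrophage and 4 mast cell and basophil genes higher, and 9 of the 11 endothelial genes. With any other library left out it called 0 erythroid and 0 neutrophil genes, 0 to 5 macrophage genes and 0 to 2 mast cell and basophil genes. The part of these cells in the levels of genes they share with platelets was not tested.

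A further 98 genes comprised genes of megakaryocytes and platelets and 11 ligands and related secreted factors. Of the 98, 96 were in the table and 95 could be tested. edgeR called 45 higher, beside 14.9% of all genes tested, and 7 lower, beside 21.3%, and 43 were not called. The ligands and related factors gave 1 of these higher calls and 3 of the lower ones. The median log2 fold change of the 95 genes was 2.44. Without 2-month replicate 2 it called 68 of them higher, and without 18-month replicate 2 it called 26. Over all genes, the calls higher went from 3047 of 20397 to 5007 of 21489 without 2-month replicate 2. Leaving out 2-month replicate 3 or 18-month replicate 1 gave 29 each, and leaving out 18-month replicate 3 gave 27.

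Of the 8 ligands of the receptors and related secreted factors that could be tested, 1 was called higher and 3 lower. Their median log2 fold change was -0.59. The shares over all genes tested were 14.9% and 21.3%. Without 2-month replicate 2, 3 of the ligands were called higher and 3 lower. Thpo, thrombopoietin, the growth factor of megakaryocytes, had 107, 81 and 119 counts in young and 51, 13 and 32 in aged libraries and fell by 1.99 on the log2 scale (SE 0.54, adjusted p = 0.026 by edgeR with Benjamini-Hochberg adjustment). Its call was lost without 2-month replicate 1 or 3 or 18-month replicate 3, with adjusted p up to 0.081, and with limma on log2(FPKM + 1), which gave -0.51. Col3a1, a fibrillar collagen, had the largest called fall of the ligand list, with a log2 fold change of -4.38 (SE 0.68). Vtn, vitronectin, a ligand of integrins, had 0 counts in each young library and 15, 23 and 53 in aged ones, at least 8.89-fold higher when each young library is set to 3 counts. Adamts13, the protease that cuts von Willebrand factor, had 9, 18 and 0 counts in young and 14, 4 and 16 in aged libraries, too few to show a difference at this depth.

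Among 24 other surface receptors, 14 were called higher, beside 14.9% of all genes tested, and 2 lower, beside 21.3%. Their median log2 fold change was 3.17. With 1 library left out 6 to 19 were called higher. The count was 8 without 2-month replicate 3 or 18-month replicate 1 and 6 without 18-month replicate 2 or 3. Mpig6b, an inhibitory receptor of the megakaryocyte lineage, had 4, 52 and 0 counts in young and 1494, 2288 and 2469 in aged libraries, and its log2 fold change of 6.63 (SE 1.41) was the largest called rise of the list. Selp, P-selectin, which platelets and endothelial cells store in granules, rose by 5.05 (SE 1.50) on the log2 scale, a call lost without 2-month replicate 3 or any 1 of the aged libraries. Mpig6b kept its call with each library left out. The called falls were in tetraspanins that many other cells make, Cd151 with a log2 fold change of -1.28 and Cd9 with -1.21.

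Granule genes gave 9 called higher and 1 lower of 18, beside 14.9% and 21.3% of all genes tested, with a median of 2.03. With 1 library left out, 6 to 11 were called higher. Pf4, platelet factor 4, a chemokine of alpha granules, had 2, 505 and 96 counts in young and 10433, 14352 and 14493 in aged libraries, a log2 fold change of 5.87 (SE 1.57, adjusted p = 0.025 by edgeR with Benjamini-Hochberg adjustment). Its call was lost without 2-month replicate 3 or any 1 of the aged libraries, with adjusted p of 0.052 to 0.087. Ppbp, another alpha granule chemokine, had 3, 1675 and 0 counts in young and 46107, 65110 and 64193 in aged libraries. The ages did not overlap. Its log2 fold change of 6.59 (SE 2.64) nonetheless did not pass the test with all libraries (edgeR, Benjamini-Hochberg adjusted p = 0.082, range 7.4e-05 to 0.15 over the alternatives). This call depended on the method, as Ppbp was called by DESeq2, by limma and by edgeR without 2-month replicate 2. Thbs1, thrombospondin, which many connective tissue cells also secrete, had a log2 fold change of -2.18.

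Signalling genes gave 7 higher and 1 lower of 22, beside 14.9% and 21.3% of all genes tested, with a median of 2.81. The count of higher calls was 15 without 2-month replicate 2 and with limma, 11 with DESeq2, and 5 without 2-month replicate 3 or 18-month replicate 2 or 3. Fermt3, kindlin-3, which activates integrins in blood cells, had the largest called rise of these at 4.28 (SE 1.27), and Vav3, an exchange factor, had the fall at -1.14 (SE 0.31), both on the log2 scale. Fermt3 lost its call without 2-month replicate 3 or any 1 of the aged libraries, and Vav3 with any library but 2-month replicate 2 left out. Syk, the kinase that GPVI and CLEC-2 signal through, had 170, 7547 and 672 counts in young and 22736, 18948 and 18591 in aged libraries, and its log2 fold change of 2.69 (SE 1.27) did not pass the test (edgeR, Benjamini-Hochberg adjusted p = 0.12). Of 9 cytoskeletal genes 7 were called higher and 0 lower, beside 14.9% and 21.3% of all genes tested, with a median of 2.27. None of them was lower at an unadjusted p below 0.05 in edgeR or called lower by DESeq2 or limma. Tubb1, the tubulin of the platelet's marginal band, rose from 8, 296 and 0 counts to 8039, 9372 and 9368 (log2 fold change 6.32, SE 1.88), a call lost without 2-month replicate 1 or any 1 of the aged libraries.

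Transcription factors of the lineage were split between called and not called. Of 14, edgeR called 7 higher and 0 lower, beside 14.9% and 21.3% of all genes tested, with a median of 2.74. Of these factors 1, Meis1, was lower at an adjusted p below 0.05 but fell short of the fold limit. Its log2 fold change was -0.79 (adjusted p = 0.017 by edgeR with Benjamini-Hochberg adjustment). DESeq2 and limma called 0 lower. The count of higher calls was 11 without 2-month replicate 2 and 2 to 4 with any other library left out. Fli1, an ETS factor, had a log2 fold change of 2.29 (SE 0.31, adjusted p = 0.0029 by edgeR with Benjamini-Hochberg adjustment), and Gfi1b, a repressor needed in megakaryocytes and red cell precursors, one of 4.98 (SE 1.64). Fli1 kept its call with each library left out, and Gfi1b lost it without 2-month replicate 3 or any 1 of the aged libraries. Gata1, the GATA factor of both lineages, had 0, 584 and 13 counts in young and 4089, 4225 and 4277 in aged libraries, and it did not pass the test (log2 fold change 4.26, SE 1.85, edgeR with Benjamini-Hochberg adjusted p = 0.10). Nfe2, a factor of platelet release, had 16, 1584 and 14 counts in young and 13763, 13424 and 13895 in aged libraries and likewise did not pass (4.54, SE 1.87, edgeR with Benjamini-Hochberg adjusted p = 0.088). These calls depended on the method. The adjusted p ranged over the alternatives from 0.00024 to 0.19 for Gata1 and from 2.4e-05 to 0.16 for Nfe2. Both were called by limma and by edgeR without 2-month replicate 2, and Nfe2 also by DESeq2.

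**Figure D5:**
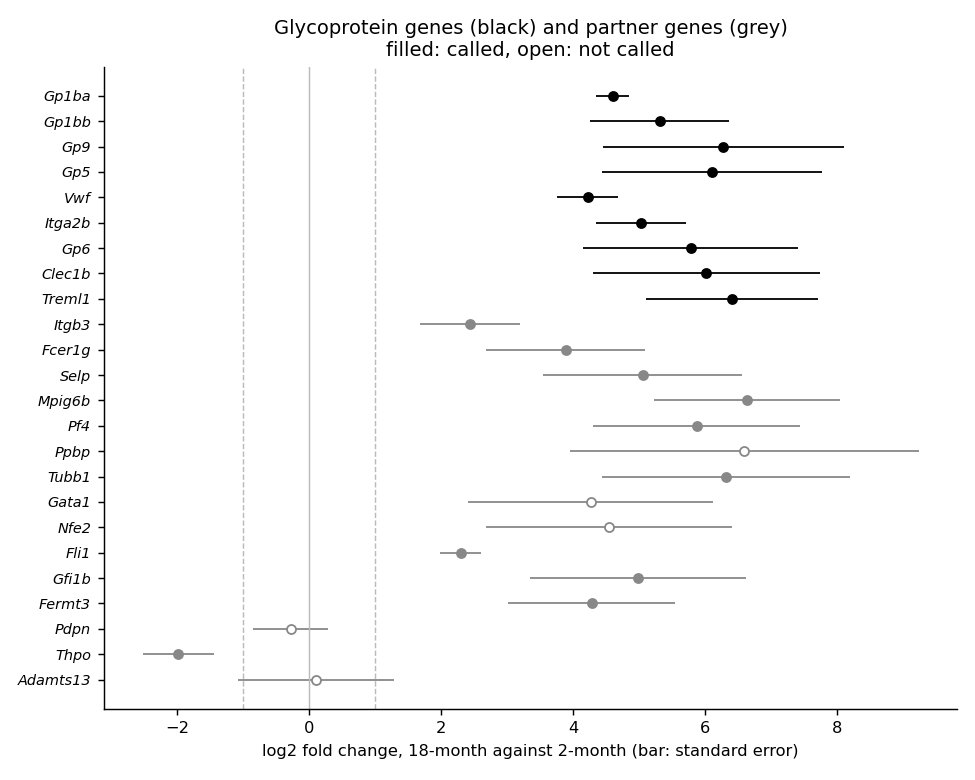
Log2 fold change, aged against young, with its standard error as a bar, for the 9 genes (black) and for partner and lineage genes (grey), filled where called and open where not, with dashed lines at the fold limits. The 9 genes lie between 4.22 and 6.40 and are all filled, while Pdpn, Adamts13, Ppbp, Gata1 and Nfe2 are open and Thpo lies at -1.99.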

How the data were processed

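Polyadenylated RNA of cartilage was sequenced from both ends in strand-specific libraries with molecular identifiers, 3 per age. The authors deposited a table with counts per gene, which are whole numbers without normalization, and FPKM values, which the authors scaled by transcript length and library total. The submitters' processing notes name cutadapt 1.9, HISAT2 2.0.4, UMI-tools, StringTie 1.3.4d, DESeq2 and edgeR. The genome build and annotation are not given in the sources used here. The coordinates of all 9 genes were identical in GENCODE M21 (GRCm38). Deposited columns of the authors' own comparison, which hold fold changes, p-values and q-values, were not used.

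edgeR 4.0.16 in R 4.3.3 was run on the counts (TMM, filterByExpr, quasi-likelihood test, all 6 libraries, age as the only term). Standard errors were taken from F, as the log2 fold change over its square root. CPM were taken over the library total. The smallest p of an exact permutation test of 3 against 3 is 0.1. Between 2 libraries of an age, the median chi-square per gene was at least 6.25 times its value under counting noise alone. Each library was kept as a sample, although this does not show whether they came from separate animals. Alternatives were other scalings and filters, a replicate block, adjusted p alone and leaving out each library. DESeq2 1.42.0 with its default dispersion fit was another. So was limma 3.58.1 with trend on log2(FPKM + 0.1) or log2(FPKM + 1) for a mean FPKM of at least 0.1. Summing overlapping genes was added after seeing the data. The tests were checked on simulated counts. Matplotlib 3.10.9 in Python 3.11.15 drew the figures.

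The 9 genes and all lists were chosen with earlier results of these data known. Named genes were the 9, their direct partners and ligands, defining genes of the lineage, the largest called rise and fall of each list, overlapping genes and the 10 genes most like the 9 over the libraries. Syk, Cd9, Gm43904, Col1a1, Meis1, Mcpt4, Tpsb2 and Cma1 were named after their values were seen. Fga, Fgb and Ahsp were not analysed here, and 2 genes that the naming rule covers are not reported here.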

Additional observations from a re-analysis of the deposited data

How the results depend on the processing

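Every fold change of the 9 genes kept its direction under the 17 alternatives, with 136 of 153 values on the same side of the limits and 17 no longer called. Between 5 and 9 of the 9 were called higher when 1 library was left out, 8 when overlapping genes were summed, and 9 otherwise. Their median log2 fold change of 5.78 was 3.66 with limma on log2(FPKM + 1) and 5.20 to 9.09 with 1 library left out. Of the other megakaryocyte, platelet and ligand genes, 45 were called higher, and 26 to 68 with 1 library left out. By adjusted p alone, 11 were lower in place of 7. Pdpn turned to 0.014 with limma on log2(FPKM + 0.1), with and without the filter, and ranged from -0.67 to 0.37 with 1 library left out, above 0 without 2-month replicate 2. Adamts13, at 0.10, ranged from -0.47 to 0.99, with -0.47 when 2-month replicate 3 was left out, and -0.02 and -0.26 when aged replicates 1 and 3 were. The cause of these shifts was not tested.

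Replicates that share a number did not deviate together, with correlations of 0.067, 0.072 and -0.064 for numbers 1, 2 and 3. With 3 libraries per age, these values cannot show whether such replicates share more than a number. With a replicate block the median of the 9 was 7.53, 9 were called, and 44 of the other genes were called higher and 7 lower. Over all genes, 3047 were called higher and 4354 lower, against 3041 and 2217 with limma on log2(FPKM + 1), 4365 and 4259 with limma on log2(FPKM + 0.1), 4414 and 5180 with DESeq2 and 5007 and 4576 without 2-month replicate 2. Young replicates 1 and 3 held 0 to 9 counts of Gp5, Gp6, Gp9, Treml1 and Clec1b.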

Other observations

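Among the genes whose level over the 6 libraries was most like the mean pattern of the 9 glycoproteins, by Pearson's r on log2(CPM + 0.5) among 15951 genes with a mean CPM of at least 1, were Acsl1, Capza2, Gm21370, Litaf, Hmga1b, Cd47, Lims1, Gcsam and Slamf1. Their r lay between 0.9995 and 0.9999, a description over 6 libraries that fall into 2 ages. Acsl1, a long-chain acyl-CoA synthetase, had 1291, 2437 and 1441 counts in young and 10045, 11137 and 11030 in aged libraries, a log2 fold change of 2.40. Cd47, the surface signal that protects cells from being engulfed, had 4284, 7133 and 4452 counts in young and 21988, 24697 and 24998 in aged libraries, a log2 fold change of 1.93. Slamf1, a receptor of lymphocytes and platelets, had 0, 50 and 0 counts in young and 1192, 1688 and 1494 in aged libraries. Lims1, a component of the integrin adhesion complex, had a log2 fold change of 2.00. Of the 9 glycoproteins themselves, Gp1bb was the least like their mean pattern, with an r of 0.948.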
